A study of Homo sapiens with 16 samples.

Results

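The genes described here supply the thymidylate and the other deoxynucleotides from which DNA is built. They were chosen by name, as 7 of the 33937 genes in the deposited count table, namely *TYMS*, *ENOSF1*, *DUT*, *TK1*, *DTYMK*, *RRM1* and *RRM2*. RNA was sequenced from HCT116 cells, an established colorectal carcinoma line, in 16 libraries. These came from a line carrying a scramble control hairpin (SCR) and from a stable line with a doxycycline-inducible short hairpin RNA against *NAA40* (NAA40-KD), the gene for an N-terminal acetyltransferase of histones H4 and H2A. Each line was grown for 96 h either with doxycycline (dox) at 1 μg/ml or without it, and the labels divide the libraries accordingly, 4 to a group, into the SCR line without and with dox, written SCR (-dox) and SCR (+dox), and the NAA40-KD line likewise. All groups share the HCT116 background and the same medium. The study names the sequenced knockdown line as NAA40-KD2, and whether the lines were clones is not stated. The study asks how loss of NAA40 acts on one-carbon metabolism, the pathway that hands the methyl group to thymidylate synthase, so the question here is how the transcripts of this synthase and its neighbours differ between the lines at each dox label.

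A dividing cell makes deoxynucleotides from ribonucleotides by ribonucleotide reductase, a complex of a large catalytic subunit (RRM1) and a small subunit that carries the radical, which is RRM2 in replicating cells and RRM2B outside S phase. The thymine base needs a branch of its own, in which the dUTPase DUT turns dUTP into dUMP, thymidylate synthase (TYMS) methylates dUMP to dTMP with a folate cofactor, and dTMP kinase (DTYMK) makes dTDP. Thymidine kinase TK1 salvages thymidine into the same pool, while TYMS is the target of 5-fluorouracil, a drug used in colorectal cancer. ENOSF1 is a metabolic enzyme of the enolase superfamily whose gene runs into the end of *TYMS* from the opposite strand. Many of these genes are known for transcripts that rise as cells enter S phase, under E2F factors and promoter elements of the CCAAT type.

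Library totals ran from 11065606 to 13855486 counts. *NAA40* stood at 9.25 to 13.8 CPM (counts relative to the library total as scaled with the TMM factors of edgeR) in NAA40-KD libraries with the (-dox) label and at 28.6 to 31.8 CPM in those with the (+dox) label, against 25.9 to 34.4 CPM over both SCR groups. The low level therefore goes against the dox label, and every group name below stands for the libraries so labelled. The library labelled NAA40-KD (-dox) replicate 4 stood apart, with a chi-square per degree of freedom of 128 to 140 against the others of its group, where all remaining pairs within groups gave 1.74 to 40.5, so the values it moves most are given with and without it. Of 8 epithelial markers 6 were above 1 CPM on average, the intestinal genes *VIL1* and *CDH17* staying at or below 0.272 and 0.835 CPM. Of 5 leukocyte markers 0 reached 1 CPM, and their summed level was at most 1.38 CPM. Of 5 fibroblast markers only *COL1A1* reached it (56.6 to 195 CPM), and of 3 endothelial markers only *VWF* (0.497 to 2.79 CPM). The summed epithelial markers stood at 5125 to 11067 CPM in NAA40-KD (-dox) and at 3805 to 5498 CPM elsewhere, and the fibroblast sum at 68.0 to 196 CPM there and 57.0 to 93.9 CPM elsewhere, and their part in the results below was not tested. The RNA comes from whole cultures, so a smaller share of cells in S phase and less RNA per cell cannot be told apart.

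*TYMS* (ENSG00000176890) lies on chromosome 18 from 657604 to 673578 on the plus strand (GRCh38, GENCODE 29), and *ENOSF1* (ENSG00000132199) from 670324 to 712676 on the minus strand. The spans share 3255 bases and their exons 967, which is 39.1% of the exon bases of *TYMS* and 8.5% of those of *ENOSF1*. At the other end, exons of the antisense transcript *TYMSOS* cover 183 bases (7.4%) of the *TYMS* exons. The libraries were made with a stranded kit, but whether reads were counted by strand is not stated. If they were not, reads from the shared exons cannot be told apart, and the values of *TYMS* and *ENOSF1* are uncertain to that extent. *TYMSOS* itself had 3 to 16 counts per library, at most 4.91% of the *TYMS* count in the same library, too few to pass the filter on low counts in any comparison.

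**Figure D1:**
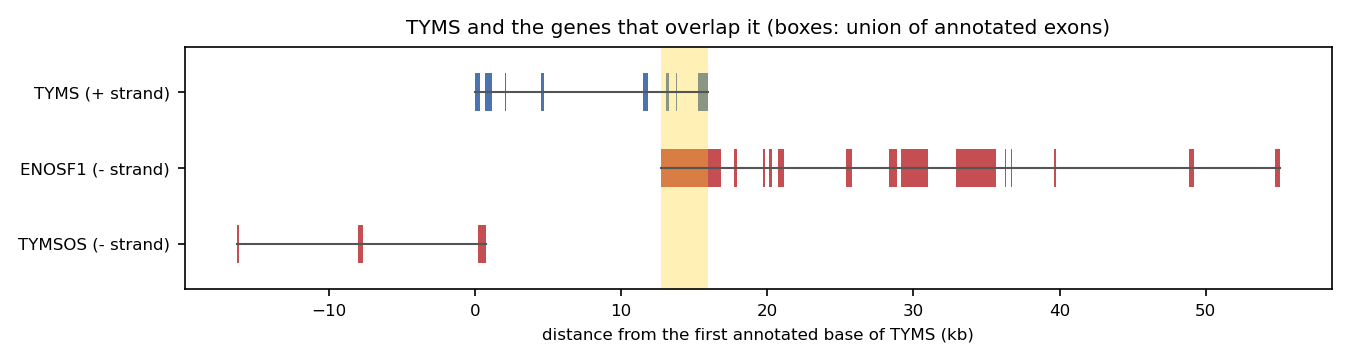
TYMS, ENOSF1 and TYMSOS drawn to scale by distance from the first annotated base of TYMS (x axis, kb), with boxes for the union of annotated exons, blue on the plus strand and red on the minus strand. The yellow band is the 3255-base stretch where the spans of TYMS and ENOSF1 overlap, and it holds the end of both genes.

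The remaining members do not overlap each other. *RRM2* (ENSG00000171848, chromosome 2, 10120698 to 10131419, plus strand) shares 20.2% of its exon bases with the readthrough gene model *AC007240.1*, which had 1 to 9 counts. *DUT* (ENSG00000128951, chromosome 15, 48331011 to 48343373, plus strand) shares 14.5% with the antisense *AC023355.1*, which had 0 to 3 counts, and *RRM1* (ENSG00000167325, chromosome 11, 4094707 to 4138876, plus strand) shares 1.5% with *RRM1-AS1*, with 0 to 1 counts. *TK1* (ENSG00000167900, chromosome 17, 78174075 to 78187233) and *DTYMK* (ENSG00000168393, chromosome 2, 241675742 to 241686991), both on the minus strand, overlap no annotated gene.

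The promoters of 5 members are shown, as the 250 bases before a RefSeq transcription start (GRCh38.p14, 5′ to 3′ on the gene's strand). Their part in the results below was not tested. All 7 members matched the RefSeq promoter set, with 12 starts in all. The capitals mark matches, on either strand, to 3 motifs searched in the window from 250 bases before to 50 after each start. These were the E2F octamers TTTCCCGC, TTTCGCGC, TTTGCCGC and TTTGGCGC, found in 3.31% of 35116 promoters of this length, the CCAAT box (CCAAT, in 34.61%) and the cell cycle homology region (TTTGAA, in 15.16%). The windows are chr18:657403-657652 (plus strand) for *TYMS*, chr15:48331947-48332196 (plus) for the fourth start of *DUT*, chr2:10122489-10122738 (plus) for the downstream start of *RRM2*, chr17:78187053-78187302 (minus) for the downstream start of *TK1* and chr18:712631-712880 (minus) for *ENOSF1*.
TYMS: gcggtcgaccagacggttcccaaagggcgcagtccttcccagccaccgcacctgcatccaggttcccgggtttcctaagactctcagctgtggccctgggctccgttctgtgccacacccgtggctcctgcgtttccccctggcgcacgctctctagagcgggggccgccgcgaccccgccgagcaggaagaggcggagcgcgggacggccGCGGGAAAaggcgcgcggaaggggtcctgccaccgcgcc
DUT: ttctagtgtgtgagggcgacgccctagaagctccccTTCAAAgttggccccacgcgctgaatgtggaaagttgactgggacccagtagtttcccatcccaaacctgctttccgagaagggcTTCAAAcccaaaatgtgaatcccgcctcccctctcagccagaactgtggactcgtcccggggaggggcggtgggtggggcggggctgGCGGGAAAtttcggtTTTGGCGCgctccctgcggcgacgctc
RRM2: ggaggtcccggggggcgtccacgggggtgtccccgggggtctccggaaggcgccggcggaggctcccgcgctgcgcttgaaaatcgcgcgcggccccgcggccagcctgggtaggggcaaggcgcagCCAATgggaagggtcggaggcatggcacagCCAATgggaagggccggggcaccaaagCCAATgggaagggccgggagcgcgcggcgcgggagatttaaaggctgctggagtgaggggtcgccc
TK1: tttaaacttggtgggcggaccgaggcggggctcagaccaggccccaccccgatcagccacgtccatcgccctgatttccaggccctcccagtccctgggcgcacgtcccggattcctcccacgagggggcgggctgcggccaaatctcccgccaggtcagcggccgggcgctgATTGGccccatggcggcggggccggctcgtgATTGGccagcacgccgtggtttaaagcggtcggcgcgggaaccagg
ENOSF1: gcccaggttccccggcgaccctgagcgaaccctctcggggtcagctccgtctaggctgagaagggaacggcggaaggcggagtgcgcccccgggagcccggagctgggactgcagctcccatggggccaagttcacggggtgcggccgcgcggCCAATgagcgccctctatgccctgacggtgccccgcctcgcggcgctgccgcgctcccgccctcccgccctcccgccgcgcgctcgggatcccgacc

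The *TYMS* window holds an E2F octamer on the minus strand whose leftmost base is at position -39 from the start. In *DUT* there are octamers at -42 and -27 (the first on the minus strand) and cell cycle homology matches at -214 and -129, all at the fourth start only, the 3 other starts having none of the motifs in their windows. *RRM2* has CCAAT boxes at -123, -93 and -66, with 1 at -249 from its other start, and *TK1* has them in inverted form at -77 and -46. The *ENOSF1* window has a CCAAT box at -97 and no E2F octamer. *RRM1* and *DTYMK*, not printed, have CCAAT boxes at -28 and at -92 and -24, and *RRM1* a cell cycle homology match at -199. A CCAAT match is thus common among promoters and an E2F octamer is not, and no match states only that these letters are not in the window.

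Levels differed widely between the members when expressed per length (RPKM, here the TMM-scaled CPM divided by the annotated exon length in kb). In the SCR (-dox) group, *TK1* was at 84.5 ± 11.3 RPKM (SD, n = 4), *RRM2* at 46.0 ± 6.36 and *RRM1* at 41.0 ± 5.46. *TYMS* was at 18.7 ± 3.06 RPKM, *DTYMK* at 14.7 ± 1.92, *DUT* at 8.51 ± 1.73 and *ENOSF1* at 5.80 ± 0.979. The length used is the union of all annotated exons, 11398 bases for *ENOSF1* against 2470 for *TYMS*, which lowers the value of genes with many isoforms. All values below are TMM-scaled CPM, which compare a gene with itself between libraries.

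*TYMS*, *DUT* and *ENOSF1* were lowest in NAA40-KD (-dox), and were first compared there with SCR at the same label. *TYMS* was at 23.8, 21.6, 25.6 and 21.8 CPM in NAA40-KD (-dox), and at 45.6, 40.0, 42.4 and 57.1 CPM in SCR (-dox). The highest of the former lies below the lowest of the latter. *TYMS* fell to 50.1% of the SCR (-dox) mean (log2 fold change -0.99, SE 0.16, edgeR adjusted p = 0.0102), a call that held in 8 of 8 fits that left out a library. Replicate 4, which stood apart over all genes, lay within the range of its group for *TYMS*, and without it the log2 fold change was -0.98 (edgeR adjusted p = 3.13e-05). *DUT*, which feeds dUMP to TYMS, had 17.0, 15.0, 18.1 and 17.0 CPM in NAA40-KD (-dox) and 31.0, 26.3, 27.4 and 40.3 CPM in SCR (-dox). These groups do not overlap either, and *DUT* fell (log2 fold change -0.89, SE 0.18, edgeR adjusted p = 0.0207), with -0.91 without replicate 4 (edgeR adjusted p = 0.000188). *ENOSF1* had 36.6, 35.4, 31.3 and 38.9 CPM against 67.1, 67.8, 78.2 and 51.2 CPM in SCR (-dox). It fell by 0.88 on the log2 scale (SE 0.17, edgeR adjusted p = 0.0169), and by 0.94 without replicate 4 (edgeR adjusted p = 4.24e-05). The calls of *DUT* and *ENOSF1* each held in 2 of 8 fits without a library, those without NAA40-KD (-dox) replicate 4 and, respectively, without SCR (-dox) replicate 2 or replicate 4. In the other 6 fits the adjusted p-values (edgeR) ran up to 0.0697 for *DUT* and 0.0699 for *ENOSF1*, with all log2 fold changes between -0.74 and -0.99. Over all alternatives tried, the adjusted p of *TYMS* ran from 7.29e-07 to 0.0764, the highest with the replicate number as a block (edgeR).

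For the subunits of ribonucleotide reductase, the library that stood apart had the lowest level of its group. *RRM2* was at 126, 101, 126 and 41.4 CPM in NAA40-KD (-dox) and at 224, 216, 247 and 292 CPM in SCR (-dox). The groups do not overlap, and within the former the lowest value is that of replicate 4. The gene fell by 1.31 on the log2 scale (SE 0.31, edgeR adjusted p = 0.0374), the largest change among the members with all libraries. Without replicate 4 it fell by 1.06, less than *TK1* (edgeR adjusted p = 6.19e-06), and in the other 7 fits that left out a library the call was lost, with adjusted p-values (edgeR) up to 0.125. *RRM1* was at 118, 105, 130 and 72.2 CPM against 168, 156, 157 and 205 CPM in SCR (-dox). Its groups also stay apart, but its log2 fold change of -0.69 (SE 0.20, edgeR adjusted p = 0.0671) did not pass the threshold with all libraries. Without replicate 4 it was -0.55 and passed (edgeR adjusted p = 0.000976).

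The salvage kinase *TK1* and the dTMP kinase *DTYMK* moved the other way in that library. *TK1* was at 66.8, 55.9, 75.7 and 156 CPM in NAA40-KD (-dox), where replicate 4 reached the range of the SCR (-dox) libraries at 149, 163, 134 and 183 CPM. With all libraries the log2 fold change was -0.81 (SE 0.31, edgeR adjusted p = 0.153). Leaving out replicate 4 moved it to -1.26 (edgeR adjusted p = 1.95e-06), over 1.5 times as large, from a mean of 66.1 ± 9.92 CPM (SD, n = 3). *DTYMK* had 28.3, 24.8, 22.1 and 44.1 CPM against 35.7, 38.3, 29.7 and 40.6 CPM, and replicate 4 was the highest of all 8 libraries. Its log2 fold change was -0.26 (SE 0.24, edgeR adjusted p = 0.539) with all libraries and -0.53 without replicate 4 (edgeR adjusted p = 0.00372).

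**Figure D2:**
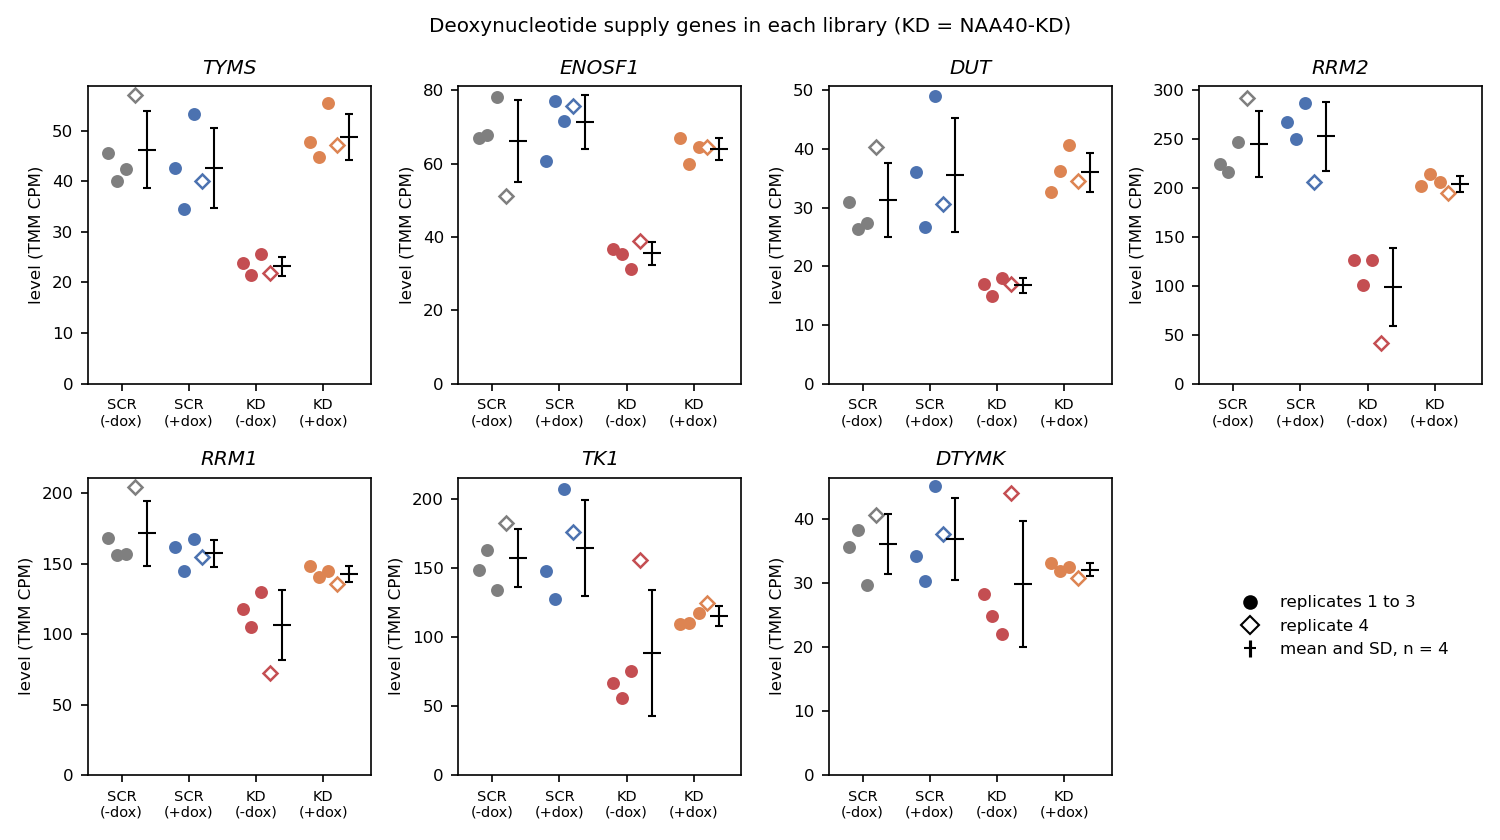
Level of each member (y axis, TMM-scaled CPM, from 0) in every library of the 4 groups (x axis), with open diamonds for replicate 4 and bars for the mean and SD (n = 4). TYMS, ENOSF1 and DUT are lowest in all 4 NAA40-KD (-dox) libraries, while replicate 4 of that group is far above the others for TK1 (156 CPM) and DTYMK (44.1 CPM) and far below them for RRM2 (41.4 CPM) and RRM1 (72.2 CPM).

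Altogether 4 of 7 members fell in NAA40-KD (-dox) against SCR (-dox) at an edgeR adjusted p under 0.05 and 0 rose, where 3.54% of the 13903 genes tested fell. Of these, *RRM2* alone also passed a log2 fold change of 1, against 1.85% of all genes. The groups did not overlap for 5 of 7 members, all lower in NAA40-KD (-dox), compared with 11.9% of all genes. The median log2 fold change of the members was -0.88, while that of all genes was 0.04. Without NAA40-KD (-dox) replicate 4, 7 of 7 members fell, but 19.4% of all genes then fell too, and the members' median was -0.94.

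At the (+dox) label, where *NAA40* had a log2 fold change of 0.15 between the lines (SE 0.10, edgeR adjusted p = 0.281), *TK1* and *RRM2* were the members that passed the threshold. *TYMS* was at 47.7, 44.7, 55.4 and 47.2 CPM in NAA40-KD (+dox) and at 42.6, 34.6, 53.3 and 40.0 CPM in SCR (+dox). The ranges overlap, and the log2 fold change of 0.19 (SE 0.12) gave an edgeR adjusted p of 0.250. Without SCR (+dox) replicate 3, its highest library, it was 0.31 and passed (edgeR adjusted p = 0.0333). *DUT* differed by 0.02 on the log2 scale (SE 0.14, edgeR adjusted p = 0.944) and *ENOSF1* by -0.16 (SE 0.09, edgeR adjusted p = 0.226). *RRM1* and *DTYMK* had log2 fold changes of -0.14 (SE 0.08, edgeR adjusted p = 0.209) and -0.20 (SE 0.11, edgeR adjusted p = 0.200).

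*TK1* had the largest log2 fold change of the members at this label, with 109, 111, 118 and 125 CPM in NAA40-KD (+dox) and 148, 128, 208 and 176 CPM in SCR (+dox). All libraries of the NAA40-KD line lie below all of the SCR line, and the SCR libraries are spread more widely. It fell by 0.51 on the log2 scale (SE 0.12, edgeR adjusted p = 0.00442), and did so in 8 of 8 fits without a library, by 0.39 to 0.62. *RRM2* had 202, 214, 206 and 194 CPM against 268, 250, 287 and 206 CPM, so that SCR (+dox) replicate 4 reaches into the NAA40-KD range. It fell by 0.31 on the log2 scale (SE 0.10, edgeR adjusted p = 0.0254). This call held in 3 of 8 fits without a library and was lost without NAA40-KD (+dox) replicates 1, 3 or 4 or SCR (+dox) replicates 1 or 3, where the adjusted p (edgeR) reached 0.0976. Thus 2 of 7 members fell, beside 13.7% of the 13869 genes tested, and the members' median was -0.16 against -0.0042 over all genes. With all 16 libraries in the same fit, 0 members passed, *TK1* having an edgeR adjusted p of 0.247 and *RRM2* of 0.507.

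**Figure D3:**
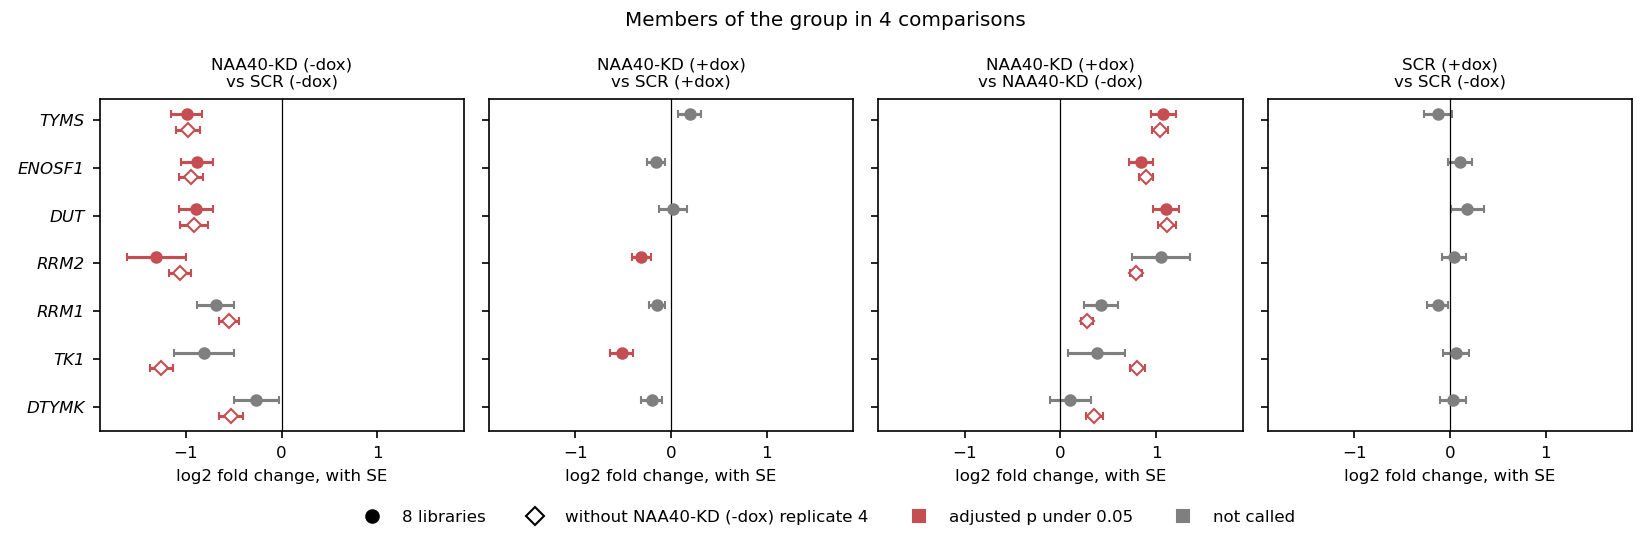
Log2 fold change with its standard error (x axis) of each member in 4 comparisons, red where the edgeR adjusted p was under 0.05 and grey otherwise. Circles use all 8 libraries and open diamonds leave out NAA40-KD (-dox) replicate 4, which hardly moves TYMS, ENOSF1 and DUT and narrows the error of RRM2, RRM1, TK1 and DTYMK.

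Within the NAA40-KD line, which shares its libraries with the comparisons above, the dox labels were set against each other directly. *TYMS* was higher in NAA40-KD (+dox) than in NAA40-KD (-dox) by 1.07 on the log2 scale (SE 0.13, edgeR adjusted p = 0.00287), or 211% of its level there. *DUT* was higher by 1.10 (SE 0.13, edgeR adjusted p = 0.00269) and *ENOSF1* by 0.84 (SE 0.12, edgeR adjusted p = 0.00545). All of these 3 genes passed in 8 of 8 fits that left out a library, with 1.04, 1.11 and 0.89 for *TYMS*, *DUT* and *ENOSF1* without NAA40-KD (-dox) replicate 4. *RRM2* had a log2 fold change of 1.05 (SE 0.30, edgeR adjusted p = 0.0592, and 0.00704 with DESeq2), *RRM1* one of 0.42 (SE 0.18, edgeR adjusted p = 0.161), *TK1* one of 0.38 (SE 0.30, edgeR adjusted p = 0.448) and *DTYMK* one of 0.10 (SE 0.21, edgeR adjusted p = 0.790). Hence 3 of 7 members rose, where 4.71% of the 13844 genes tested rose, and 2 of them, *TYMS* and *DUT*, passed a log2 fold change of 1, as did 1.59% of all genes. The groups did not overlap for 5 of 7 members, against 15.5% of all genes with higher values. Leaving out NAA40-KD (-dox) replicate 4 gave calls for 7 of 7 members, in a fit in which 25.8% of all genes rose, with log2 fold changes of 0.79 for *RRM2*, 0.80 for *TK1*, 0.35 for *DTYMK* and 0.27 for *RRM1*.

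Dox made no detectable difference to the members in the SCR line. Their log2 fold changes between SCR (+dox) and SCR (-dox) ran from -0.13 for *RRM1* (SE 0.11) to 0.18 for *DUT* (SE 0.17), and 0 of 7 passed with edgeR, as with DESeq2 and limma-voom. At an unadjusted p under 0.05 there were also 0 members. Over all genes 0.0% of 13882 were called, 271 of them having an unadjusted p under 0.05.

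The difference between lines was also compared between the dox labels, as the interaction of line and label over all 16 libraries. It was 1.19 on the log2 scale for *TYMS* (SE 0.21, edgeR adjusted p = 0.00214), 0.92 for *DUT* (SE 0.25, edgeR adjusted p = 0.0279) and 0.74 for *ENOSF1* (SE 0.18, edgeR adjusted p = 0.0183). In all 3 genes the line difference was thus more negative at the (-dox) label than at the (+dox) label. *TYMS* and *ENOSF1* kept this call in 16 of 16 fits without a library, while *DUT* kept it in 9 of 16, with adjusted p-values (edgeR) up to 0.0665 without SCR (-dox) replicates 1 or 4, SCR (+dox) 2 or 4, NAA40-KD (-dox) 2 or NAA40-KD (+dox) 2 or 3. Without the filter on low counts the adjusted p of *ENOSF1* was 0.0666 (edgeR). *RRM2* had a similar estimate of 1.00 with a wider error (SE 0.34, edgeR adjusted p = 0.0728). It passed with all libraries in DESeq2 (DESeq2 adjusted p = 0.0346) and without the filter on low counts (edgeR adjusted p = 0.0391). It also passed without NAA40-KD (-dox) replicates 1, 3 or 4, the last at 0.74 (edgeR adjusted p = 0.00134). *RRM1* had 0.55 (SE 0.21, edgeR adjusted p = 0.114), *TK1* 0.32 (SE 0.35, edgeR adjusted p = 0.607) and *DTYMK* 0.07 (SE 0.26, edgeR adjusted p = 0.893). The 3 of 7 members stand beside 4.31% of the 14392 genes tested with a higher value. Without NAA40-KD (-dox) replicate 4 it was 6 of 7, all but *DTYMK*, beside 11.9% of all genes. *TK1* then had 0.73 (edgeR adjusted p = 0.00571), *RRM1* 0.40 (edgeR adjusted p = 0.0329) and *DTYMK* 0.32 (edgeR adjusted p = 0.193).

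Ordered by mean level, *TYMS*, *ENOSF1*, *DUT*, *RRM1* and *RRM2* had NAA40-KD (-dox) as the lowest group, with its range apart from that of the next group. The share of all genes with this order was not computed. In pairs, NAA40-KD (-dox) lay apart and lower for 11.9% of genes against SCR (-dox) and for 15.5% against NAA40-KD (+dox). The order of the other 3 groups was not resolved for *TYMS*, *ENOSF1* and *DUT*, as their ranges overlap. For *RRM1*, NAA40-KD (+dox) at 135 to 149 CPM lay below SCR (-dox) at 156 to 205 CPM. SCR (+dox), at 145 to 168 CPM, overlaps both. For *RRM2*, NAA40-KD (+dox) at 204 ± 8.22 CPM (SD, n = 4) lay apart from SCR (-dox) at 245 ± 33.8 CPM, the next group. The gap between them was narrow, from 214 to 216 CPM, and SCR (+dox) overlaps NAA40-KD (+dox) through replicate 4 at 206 CPM. For *TK1*, NAA40-KD (+dox) at 116 ± 7.22 CPM lay apart from SCR (-dox) at 157 ± 21.0 CPM, while NAA40-KD (-dox), the group with the lowest mean, overlaps all others through replicate 4. All neighbours of *DTYMK* overlap.

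To see whether genes of the pathway moved in proportion, the log2 ratio of the counts of 2 genes was taken within each library, which needs no scaling between libraries (exact two-sided permutation test over 70 arrangements, smallest possible p 0.0286, adjusted over 4 pairs and 3 comparisons). The ratio of *RRM2* to its alternative subunit *RRM2B*, which serves DNA repair and mitochondrial DNA, was -0.68, -1.04, -0.78 and -0.47 in NAA40-KD (-dox) and 0.70, 1.07, 0.75 and 0.86 in SCR (-dox). *RRM2* counts thus exceeded those of *RRM2B* in each SCR (-dox) library and fell short of them in each NAA40-KD (-dox) library, replicate 4 included. The difference was -1.59 (exact permutation test, adjusted p = 0.0490), and at the (+dox) label it was -0.53, from 0.43 ± 0.06 in NAA40-KD to 0.96 ± 0.20 in SCR (SD, n = 4, exact permutation test, adjusted p = 0.0490). Between NAA40-KD (+dox) and NAA40-KD (-dox) it was 1.17 (exact permutation test, adjusted p = 0.0490). An adjusted p of 0.0490 in this exact permutation test stands for the smallest possible p each time. It therefore does not rank the differences by size, and it depends on how many ratios reached that p. Without replicate 4 of NAA40-KD (-dox) the differences were -1.68 at the (-dox) label and 1.27 within the line. Replicate 4 had low counts of both genes, *RRM2B* being at 57.3 CPM there and at 202 to 217 CPM in the rest of its group, so that its ratio stayed near those of its group while neither level did.

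The ratio of *RRM2* to *RRM1*, the subunits of the same complex, was 0.10, -0.05, -0.04 and -0.80 in NAA40-KD (-dox) and 0.41, 0.47, 0.65 and 0.51 in SCR (-dox). All 4 ratios in NAA40-KD (-dox) lie below all in SCR (-dox) (difference -0.71, exact permutation test, adjusted p = 0.0490), the lowest being that of replicate 4, without which the difference was -0.51. Against NAA40-KD (+dox) the difference was 0.72 (exact permutation test, adjusted p = 0.0490), or 0.52 without replicate 4, while at the (+dox) label the lines overlap (-0.16, exact permutation test, adjusted p = 0.156). The ratio of the cytosolic *TK1* to the mitochondrial *TK2* was 1.41, 1.28, 1.42 and 2.43 in NAA40-KD (-dox) against 3.21, 2.90, 2.89 and 3.38 in SCR (-dox). The difference of -1.46 (exact permutation test, adjusted p = 0.0490) was -1.72 without replicate 4, and at the (+dox) label it was -0.30 (exact permutation test, adjusted p = 0.0857). For *TYMS* to *ENOSF1* the groups overlap in all 3 comparisons, with -0.62, -0.71, -0.29 and -0.83 in NAA40-KD (-dox) and -0.56, -0.76, -0.88 and 0.16 in SCR (-dox). The difference of -0.11 (exact permutation test, adjusted p = 0.743) became 0.12 without SCR (-dox) replicate 4, the only library with more *TYMS* than *ENOSF1* counts.

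**Figure D4:**
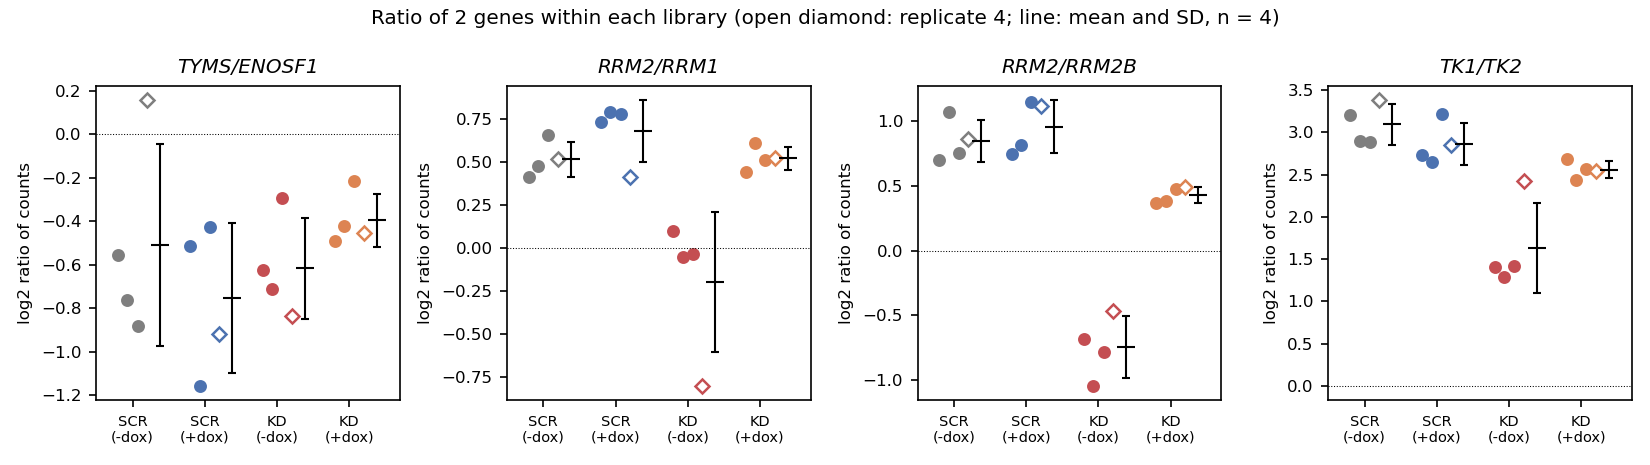
Log2 ratio of the counts of 2 genes (y axis) within each library of the 4 groups (x axis), with open diamonds for replicate 4 and bars for the mean and SD (n = 4). RRM2/RRM2B is above 0 in all libraries except the 4 labelled NAA40-KD (-dox), and TYMS/ENOSF1 overlaps between all groups.

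A further 34 genes of deoxynucleotide metabolism, all of them tested, were described as a list. In NAA40-KD (-dox) against SCR (-dox), 1 rose and 0 fell, where 2.88% of all genes rose and 3.54% fell, and the median log2 fold change was 0.04, as over all genes. *NT5M*, a mitochondrial deoxynucleotidase, rose by 1.14 (SE 0.27, edgeR adjusted p = 0.0392), and by 0.83 without replicate 4 (edgeR adjusted p = 0.00126), a call that was lost without any of the SCR (-dox) libraries or NAA40-KD (-dox) replicates 1 or 2. *RRM2B* differed by 0.32 (SE 0.36, edgeR adjusted p = 0.629) and *TK2* by 0.53 (SE 0.16, edgeR adjusted p = 0.0818). Without replicate 4 both were called, at 0.61 (edgeR adjusted p = 0.00107) and 0.47 (edgeR adjusted p = 0.00703). Of the 34, 6 then rose and 10 fell, in a fit where 2347 of 13751 genes rose and 2674 (19.4%) fell. The largest falls were then those of *UPP1* (-1.04) and *ITPA* (-0.97). Also among those that fell were all 3 listed genes of folate metabolism, *SHMT1* (-0.66), *SHMT2* (-0.61) and *MTHFD1* (-0.26). They load and interconvert one-carbon units on folate, and were named after their values were seen. With all libraries these 3 folate genes were not called (edgeR adjusted p = 0.103, 0.361 and 0.224). *SAMHD1*, which breaks down deoxynucleotides, was at -0.05 (SE 0.15, edgeR adjusted p = 0.879).

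At the (+dox) label 6 of the 34 rose and 4 fell in NAA40-KD against SCR, beside 10.9% and 13.7% of all genes, and the median was -0.01 beside -0.0042 over all genes. The largest changes were those of *NT5M* (log2 fold change 0.85, SE 0.17, edgeR adjusted p = 0.00132), the diphosphate kinase *NME2* (0.79, SE 0.17, edgeR adjusted p = 0.00282) and the uridine phosphorylase *UPP1* (-0.77, SE 0.13, edgeR adjusted p = 0.000254). *NME2* is uncertain, as it shares sequence with the neighbouring *NME1*. *SAMHD1* rose by 0.43 (SE 0.09, edgeR adjusted p = 0.00295). *RRM2B* was at 0.20 (SE 0.12, edgeR adjusted p = 0.230) and *TK2* at -0.18 (SE 0.11, edgeR adjusted p = 0.230). Within the NAA40-KD line 2 of the 34 were higher at the (+dox) label, beside 4.71% of all genes, and 1 was lower, beside 5.5%, the cytidine deaminase *CDA* (log2 fold change -0.69, SE 0.17, edgeR adjusted p = 0.0341). Without NAA40-KD (-dox) replicate 4 these counts were 14 and 8, in a fit where 3537 (25.8%) of 13700 genes were higher and 3646 lower. With all libraries *ITPA*, which hydrolyses inosine triphosphates, was higher by 0.92 (SE 0.19, edgeR adjusted p = 0.0205) and the uracil glycosylase *UNG*, which cuts uracil from DNA, by 0.81 (SE 0.12, edgeR adjusted p = 0.00620). The call of *ITPA* was lost without any of the other 7 libraries, replicate 4 of NAA40-KD (-dox) excepted. In the SCR line 0 of 34 passed with edgeR, 2 of them having an unadjusted p under 0.05. The interaction of line and label passed for 5 of the 34, named after their values were seen. It was higher for *UNG* (0.83, edgeR adjusted p = 0.0111) and *ITPA* (0.82, edgeR adjusted p = 0.0310), beside 4.31% of all genes. It was lower for the guanylate kinase *GUK1* (-1.03, edgeR adjusted p = 0.0492), *CDA* (-0.87, edgeR adjusted p = 0.0173) and *TK2* (-0.70, edgeR adjusted p = 0.0221), beside 4.91% of all genes, and *GUK1* was at -0.63 without NAA40-KD (-dox) replicate 4.

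**Figure D5:**
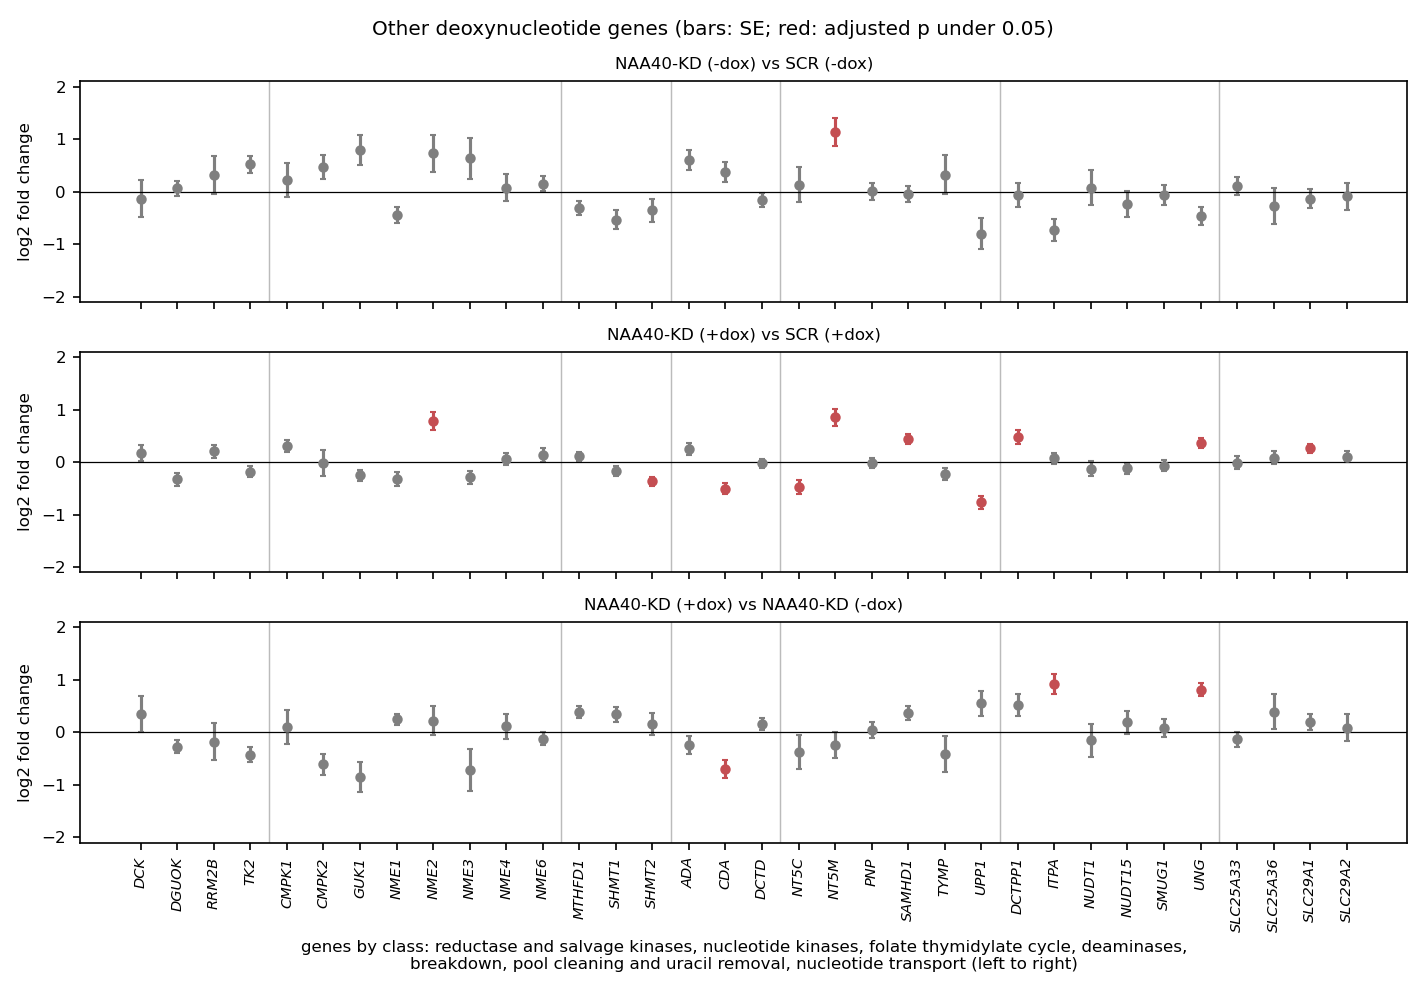
Log2 fold change with its standard error (y axis) of 34 other genes of deoxynucleotide metabolism (x axis, grouped by class between grey lines) in 3 comparisons, red where the edgeR adjusted p was under 0.05. NT5M is the only red point in NAA40-KD (-dox) against SCR (-dox), at 1.14, while 10 genes are red at the (+dox) label and CDA, ITPA and UNG between the NAA40-KD groups.

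Lists of S phase and G2/M genes that hold none of the members are given beside these results. Of 27 S phase genes, 18 fell and 0 rose in NAA40-KD (-dox) against SCR (-dox), with a median of -1.08, and of 18 G2/M genes 7 fell and 0 rose, with a median of -0.76. Over all genes 3.54% fell and 2.88% rose. Without replicate 4, 27 of 27 S phase genes (median -1.14) and 17 of 18 G2/M genes (median -0.61) fell, beside 19.4% of all genes. The summed level of the S phase genes was 1056 to 1406 CPM in NAA40-KD (-dox) and 1978 to 2737 CPM in SCR (-dox), and their part in the difference of the members was not tested. At the (+dox) label 7 of 27 S phase genes rose and 1 fell (median 0.16), and 0 of 18 G2/M genes rose and 6 fell (median -0.17), where *TK1* and *RRM2* fell. Over all genes 10.9% rose and 13.7% fell at that label. In a fit within the NAA40-KD line, 23 of 27 S phase genes rose (median 1.12) and 5 of 18 G2/M genes (median 0.53), beside 4.71% of all genes. Without replicate 4 of NAA40-KD (-dox), 26 S phase genes rose and 1 fell (median 1.22), and 16 G2/M genes rose (median 0.43). In that fit 25.8% of all genes rose, and 3646 of 13700 fell.

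Across the 16 libraries, the members differed in the genes whose levels ran most closely with theirs (Pearson's r of log2 CPM over 11128 other genes with a mean of at least 5 CPM, given as a description, since the libraries share groups and NAA40-KD (-dox) sets the extremes). For *TYMS* these were *CTPS1*, the CTP synthase (r = 0.98), the chromatin assembly subunit *CHAF1B* (0.98) and the helicase subunit *MCM4* (0.98). *TYMS* was itself first for *DUT* (0.96), followed by *RANBP1* (0.96) and *GPATCH4* (0.96). *RRM2* was followed by *VAMP3* (0.99), *GGH*, a hydrolase that removes glutamates from folates (0.99), and *RAD51AP1* (0.98), and *RRM1* by *SLC35F2* (0.97), *TMEM200A* (0.97) and *RBBP7* (0.97). *TK1* ran with *PKM*, a pyruvate kinase of glycolysis (0.97), *C19orf48P* (0.97) and *TIMM13* (0.97), and *DTYMK* with *LY6E* (0.93), *NPM3* (0.93) and *CDKN2A* (0.92). *ENOSF1* had its closest genes in *ARIH2* (0.94), *MDGA1* (0.94) and *RBM5* (0.94), and its r with the overlapping *TYMS* was 0.76, rank 359 among its genes. Among the members themselves, the highest values over all 16 libraries were those of *TYMS* with *DUT* (0.96, and 0.96 without that library), *RRM1* with *RRM2* (0.96 and 0.89) and *TK1* with *DTYMK* (0.87 and 0.89). Without that library *TK1* ran with *RRM2* at 0.92 and with *RRM1* at 0.90, from 0.42 and 0.45 with it.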

How the data were processed

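RNA of 16 HCT116 libraries was sequenced, and the authors deposited a table of raw counts per gene, made with STAR and featureCounts per the labels. The methods name a mouse build for alignment and the labels hg38 and GRCm38, while all 33937 identifiers are human, and 26668 had a symbol. Whether strand was used in counting is not given in the sources used here.

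The members and gene lists were chosen with earlier results of these data known. Genes with more than 1 CPM in at least 4 libraries of a comparison were tested with edgeR 4.0.16 (R 4.3.3, TMM scaling, robust quasi-likelihood test, Benjamini-Hochberg adjustment over all genes tested, threshold 0.05, and separately an absolute log2 fold change above 1). SE is the log2 fold change over the square root of F. Named genes are all members, RRM2B, TK2, SAMHD1 and TYMSOS, other pathway genes called with a log2 fold change above 1 or among the 3 largest called in any of the 4 comparisons of groups, and the 3 genes most alike to each member. A pathway gene is not reported here. Ratios of 2 genes used counts with 0.5 added. Alternatives were DESeq2 1.42.0, limma-voom (limma 3.58.1), other scalings, no filter, all libraries in a fit, a replicate block and each library left out. The edgeR, DESeq2 and limma-voom tests were run on simulated counts with known changes, for a comparison between groups. The spread was that of the SCR libraries, so it lacked that of NAA40-KD (-dox). The interaction and the permutation tests were not simulated. Libraries are independent RNA samples per the study, but separate cultures are not stated, so p-values measure the spread between these samples. Depth was 11065606 to 13855486 counts per library, which left 197 to 662 counts for *DUT*, the member with the fewest.

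Groups follow the labels although *NAA40* goes against them, and the short sample names ("wDox") can be read as with or without dox.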

Additional observations from a re-analysis of the deposited data

Results flagged for a closer look

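In 48 groups of 4 values, those of the members, of *NAA40* and of the 4 count ratios, a library was looked for whose gap to the nearest of the others took up most of the range of its group, as happens by chance in about 1 in 20 groups. There were 3 such values, all in replicate 4 of a group. This is near the number that the rate gives, but the rate takes the groups as independent, and the ratios share counts with the members. NAA40-KD (-dox) replicate 4 also stood apart over all genes. The log2 ratio of *RRM2* to *RRM1* was -0.80 in NAA40-KD (-dox) replicate 4, where the other 3 libraries had -0.05 to 0.10, and the ratio of *TK1* to *TK2* was 2.43 there, where the others had 1.28 to 1.42. In SCR (+dox) replicate 4 the ratio of *RRM2* to *RRM1* was 0.41, where the others had 0.73 to 0.79. None of the levels of the members themselves reached the limit.

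The difference between the lines varied with the dox label for 3 members, by the interaction over all 16 libraries, at 1.19 on the log2 scale for *TYMS* (edgeR adjusted p = 0.00214), 0.74 for *ENOSF1* (edgeR adjusted p = 0.0183) and 0.92 for *DUT* (edgeR adjusted p = 0.0279).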

How the results depend on the processing

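The direction of every called member was the same under all alternatives run. For NAA40-KD (-dox) against SCR (-dox), with 4 members called, the count was 0 at an adjusted p under 0.01 and ran from 1 to 7 with a library left out, the 7 being without NAA40-KD (-dox) replicate 4. It was 0 with the replicate number as a block. It was 5 with DESeq2 (*RRM1* added) and with no filter on low counts (*TK1* added), and 6 with all 16 libraries in 1 fit (both added). Same-numbered libraries did not deviate together there (r of deviations from group means -0.63 to 0.21), and 1 of 8 libraries was closest to its own number. It was 4 of 8 in NAA40-KD (+dox) against SCR (+dox), 5 of 8 between the NAA40-KD groups and 0 of 8 in the SCR line. The main fits did not take the numbers as pairs in any comparison. Over all genes in NAA40-KD (-dox) against SCR (-dox), the block left 24 higher and 58 lower, from 400 and 492, where DESeq2 gave 936 and 978 and a fit of all 16 libraries 1440 and 1511. At the (+dox) label the block gave 1927 higher and 2143 lower, from 1506 and 1896. In NAA40-KD (+dox) against SCR (+dox), 2 members were called, 0 with all 16 libraries in 1 fit, 1 at an adjusted p under 0.01, 1 to 2 with a library left out and 2 with the replicate block. Between the NAA40-KD groups it was 3, from 3 to 7 with a library left out and 4, *RRM2* added, with DESeq2, limma-voom, no filter or all 16 libraries, and for the interaction 3, with 1 at an adjusted p under 0.01 and 2 to 6 with a library left out. In the interaction *RRM2* was added with DESeq2, and took the place of *ENOSF1* with no filter. Fits on fewer libraries have fewer degrees of freedom.

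Signs changed only for uncalled values when a library was left out. At the (+dox) label the log2 fold change of *DUT* ran from -0.10 to 0.21. That of *DTYMK* ran from -0.025 to 0.35 between the NAA40-KD groups and from -0.048 to 0.32 in the interaction. In the SCR line the ranges were -0.25 to 0.0017 for *TYMS*, -0.062 to 0.17 for *TK1*, -0.023 to 0.14 for *RRM2*, -0.0089 to 0.34 for *DUT* and -0.081 to 0.11 for *DTYMK*. The *TYMS* to *ENOSF1* ratio ran from -0.23 to 0.12 at the (-dox) label. The causes were not tested. A pseudocount of 5 changed no call of the ratios.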
